A study of Homo sapiens with 6 samples.

Results

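The genes that encode laminins and integrins were examined in ChIP-seq read counts from G401 cells, a malignant rhabdoid tumor line that lacks SMARCB1, a subunit of the SWI/SNF chromatin remodeler. Members were all genes of the count table named as a laminin alpha, beta or gamma chain or as an integrin alpha or beta subunit and with reads in the input. The names of 38 genes matched and 37 of them had input reads, among 56638 genes in the table and 37470 with input reads. These were 12 laminin genes and 25 integrin genes, of which 17 encode alpha and 8 encode beta subunits. ITGA5, the alpha subunit of the main fibronectin receptor, was listed at 0 in all 6 libraries. Its input is 0 as well, so the table gives no measurement of either mark there. In the annotation used here its whole span is shared with another gene, GPR84-AS1, and the part of this in the 0 was not tested.

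One culture was treated with the solvent DMSO and one with 3 µM MAK683 for 3 days. MAK683 binds EED, a core subunit of PRC2, and blocks the enzyme. From each culture 1 library was made with an antibody against H3K27me3, 1 with an antibody against H3K4me3, and 1 from input chromatin, so that every group held 1 library and no difference had a replicate check. No p-value is therefore given, and the intervals below are exact 95% Clopper-Pearson intervals that cover counting error only.

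Laminins are heterotrimers of an alpha, a beta and a gamma chain that polymerize in basement membranes. Integrins are heterodimers of an alpha and a beta subunit that span the plasma membrane, bind laminin, collagen, fibronectin or cell surface counter-receptors outside the cell, and connect them through talin and kindlin to actin inside. H3K27me3 is laid down by PRC2 and marks silenced genes, often over the whole gene body. H3K4me3 sits at the start sites of active or poised genes. Which chains and subunits a cell makes sets the matrix it builds and the matrix it can hold.

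Library totals ran from 13308099 to 21281877 counts, in which 3 counts correspond to 0.141 to 0.225 CPM (counts scaled to the library total). Members had between 84 and 11240 counts in any library, so none was near that limit. Reads were counted over whole genes, and the members span 12.0 to 633 kb (median 81.7 kb). Input coverage of the members, with a median of 26.2 counts per kb over both input libraries, had nearly the same center as that of 14455 protein-coding genes, 26.1. It ran from 13.0 at ITGB1 and 15.0 at ITGAV to 46.6 at ITGB6. Of the spans of ITGB1 and ITGAV, 59.6% and 56.5% are unshared with other genes, and the part of this in their low coverage was not tested. SMARCB1 itself had 0 counts in both input libraries. Most of the span of ITGB3 and ITGB6 is shared with other annotated genes (unshared 0.117% and 42.0%), and their counts may hold reads of those neighbors.

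Levels are given as the log2 ratio of CPM in the antibody library to CPM in the input library of the same treatment, each with 0.05 CPM added. CPM scale each library to its own total, so levels compare genes within a library. The study reports a massive depletion of H3K27me3 across the genome with MAK683, which these levels cannot show. Similar levels in DMSO and MAK683 therefore do not mean that a gene kept the mark. In DMSO, 13 of the 37 members lay above input for H3K27me3 (background over 21263 genes with at least 100 input counts: 27.3%), and 3 of them lay at least 2-fold above it (background 10.7%). The 13 were the integrin genes ITGA8, ITGA2, ITGA1, ITGA4, ITGB8, ITGB6, ITGA9 and ITGAM and the laminin genes LAMA4, LAMB4, LAMB1, LAMA2 and LAMA3. After MAK683, 14 lay above input (background 28.5%), with ITGA11 added, and 2 at least 2-fold above it (background 6.71%). The median level of the members was -0.51 in DMSO and -0.28 in MAK683, against -0.75 and -0.56 over all genes. Both the members and all genes were therefore centered below input. In DMSO the members' share above input was 35.1% and their share at 2-fold 8.11%, both near the background. The background was not matched for gene length, so nothing particular to the members can be read from these shares.

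**Figure D1:**
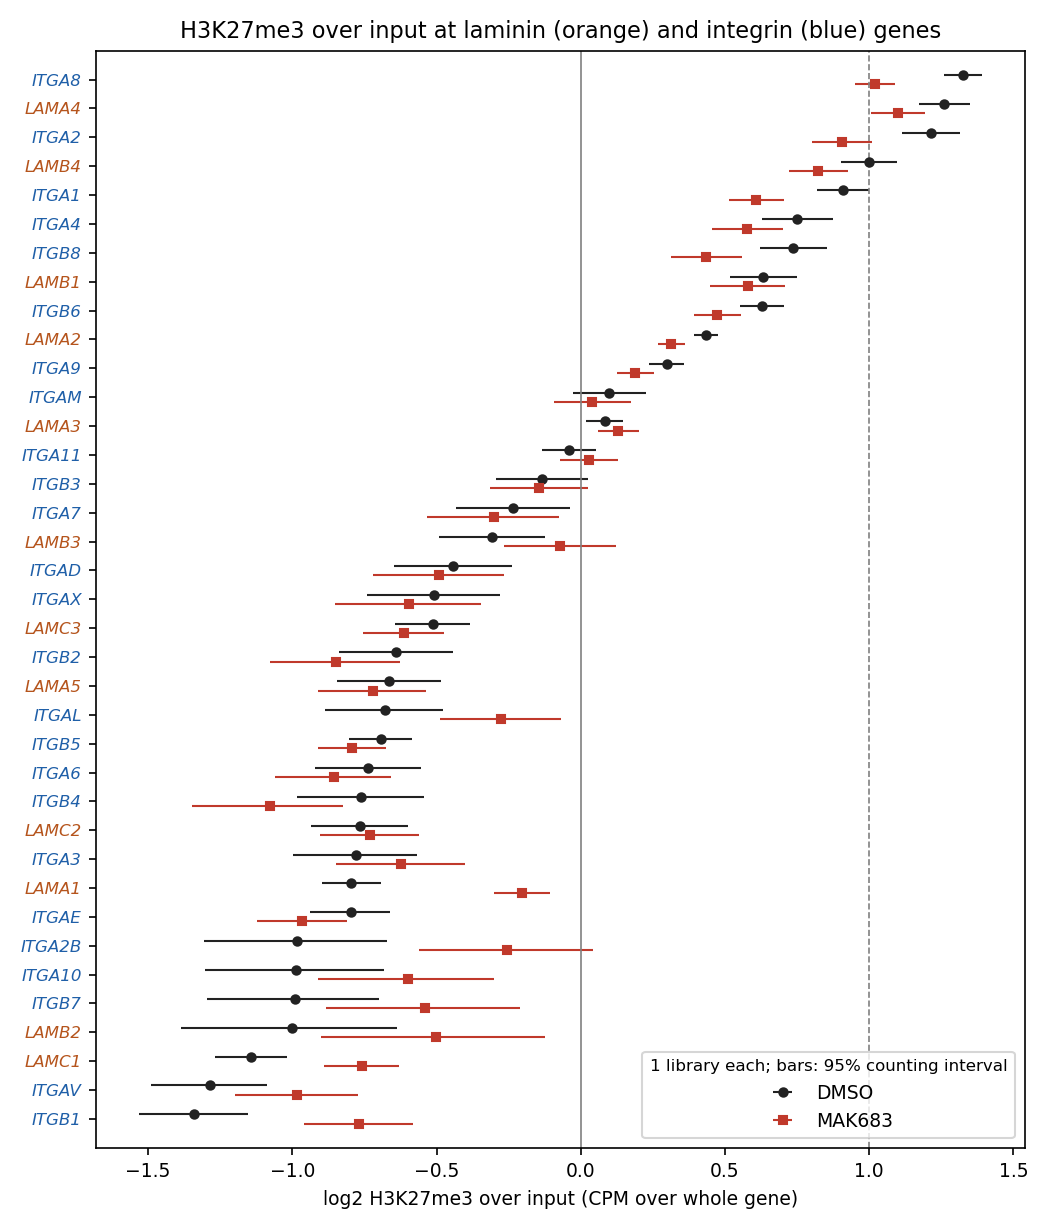
H3K27me3 over input (log2 of CPM ratios, x axis) for the 37 laminin (orange names) and integrin (blue names) genes, ordered by their level in DMSO. Black circles are DMSO and red squares MAK683, 1 library each, with bars for the 95% counting interval; the solid line is input and the dashed line 2-fold over input, which ITGA8, LAMA4 and ITGA2 passed in DMSO.

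The DMSO order was headed by ITGA8, LAMA4 and ITGA2 and ended by LAMC1, ITGAV and ITGB1. Neighbors in this order often could not be separated: the counting intervals of ITGA8 (1.26 to 1.39), LAMA4 (1.17 to 1.35) and ITGA2 (1.11 to 1.31) overlapped, as did those of ITGAV (-1.49 to -1.09) and ITGB1 (-1.53 to -1.15). LAMB4 lay on the 2-fold line, with an interval of 0.90 to 1.10.

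For H3K4me3, 11 members lay above input in DMSO (background 43.8%) and 10 in MAK683 (background 45.8%). At least 2-fold above input were 5 members in DMSO (background 24.2%) and 5 in MAK683 (background 22.6%), and the names were the same in both: LAMB2, LAMA5, ITGB1, ITGAV and ITGA3. The members' median was -0.56 in DMSO and -0.47 in MAK683, against -0.25 and -0.12 over all genes. No member lay above input for both marks in DMSO (background 2.89%): 13 did so for H3K27me3, 11 for H3K4me3 and 13 for neither. In MAK683, LAMB1 was above input for both (background 4.62%). Reads were counted over whole genes, while H3K4me3 sits at start sites. A level below input, above all in a long gene, therefore does not show that the start site lacks H3K4me3. These counts do not tell whether both marks meet at a start site. Across the 37 members the levels of the marks in DMSO ran in opposite order (Spearman's rho = -0.75, across genes that share both antibody libraries and the same input). Gene length moved with both levels, with rho = 0.44 for H3K27me3 and -0.29 for H3K4me3, and its part in that relation was not tested.

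**Figure D2:**
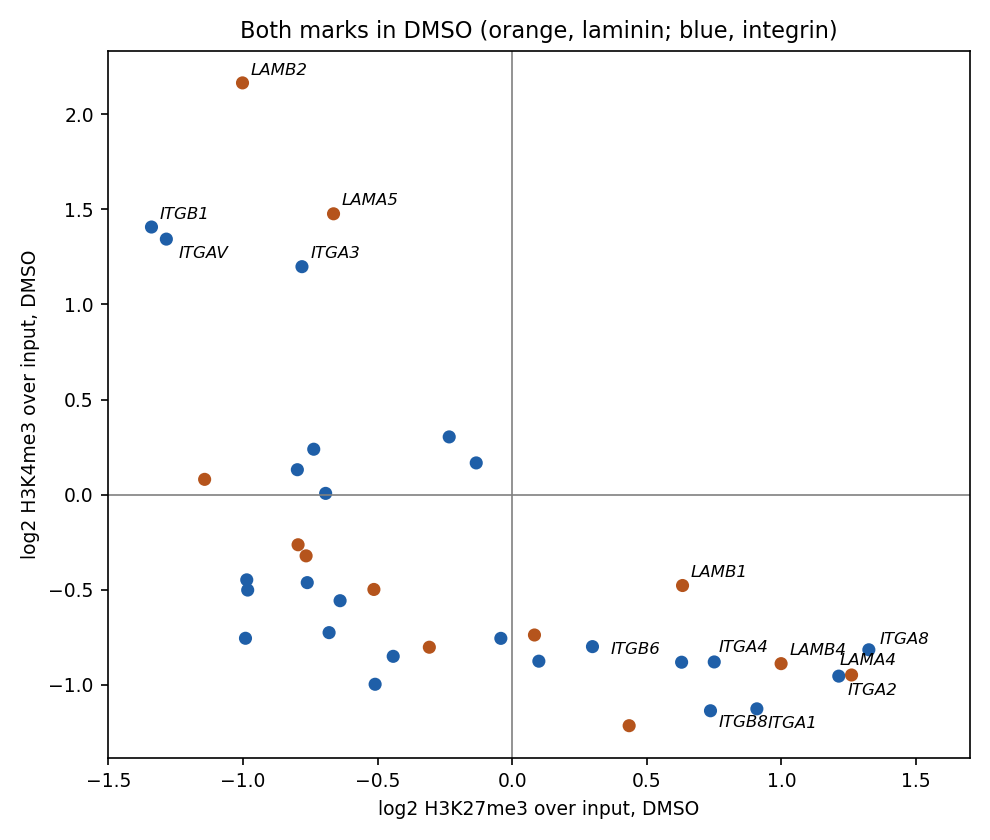
H3K27me3 over input (x axis) against H3K4me3 over input (y axis), both log2 of CPM ratios, in the DMSO libraries; each point is 1 of 37 genes, orange for laminin and blue for integrin genes. The upper right quadrant, above input for both marks, holds 0 genes, and LAMB1 is the highest in H3K4me3 of the 13 genes above input in H3K27me3.

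Among the laminin alpha chains, H3K27me3 ranged from clearly above to below input. LAMA4 (chr6:112429134-112576141, hg19), the alpha chain of endothelial and muscle basement membranes, gave 3776 H3K27me3 reads with DMSO against 2289 with MAK683, over inputs of 1384 and 1566, which is 2.40-fold and 2.14-fold over input. Its H3K4me3 counts were 906 and 831, 0.52-fold and 0.53-fold over input. In both treatments LAMA4 held more of the H3K27me3 reads, and fewer of the H3K4me3 reads, than of the input reads. LAMA2, the chain missing in a congenital muscular dystrophy, was the longest member and had the lowest H3K4me3 level of the 37 (-1.21 in DMSO, -1.14 in MAK683), with H3K27me3 at 0.43 and 0.31. LAMA3, the alpha chain of the epithelial laminin of skin, was close to input for H3K27me3, at 0.08 and 0.13. LAMA5, the broadly made alpha chain of adult basement membranes, had the highest H3K4me3 of the alpha chains, with counts of 2109 and 1868 over inputs of 599 and 803, or 1.48 and 1.21 on the log2 scale, and H3K27me3 at -0.66 and -0.72. LAMA1, the alpha chain of the embryonic laminin, had the lowest H3K27me3 level of the alpha chains in DMSO, -0.80.

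Among the beta chains, LAMB2, the beta chain of neuromuscular and kidney basement membranes, had the highest H3K4me3 level of all members, 956 counts with DMSO and 750 with MAK683 over inputs of 168 and 175 (4.48-fold and 4.24-fold). Its H3K27me3 counts, 95 and 84, were the lowest of the members. LAMB3, which pairs with LAMA3 in skin, lay below input for both marks in DMSO (H3K27me3 -0.31, H3K4me3 -0.80). The 3 gamma chains all lay below input for H3K27me3 in both treatments, with a median of -0.77 in DMSO. LAMC1, the gamma chain shared by most laminins, had 798 and 687 H3K27me3 counts over inputs of 1549 and 1705 (-1.14 and -0.76), and was just above input for H3K4me3 (0.08 and 0.16).

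The integrin subunits that bind laminin (ITGA3, ITGA6, ITGA7 and ITGB4) had 0 of 4 genes above input for H3K27me3 in DMSO (background 27.3%), with a median of -0.75 like that of all genes, and 3 of 4 above input for H3K4me3 (background 43.8%). ITGA3 was the highest of them, with 1304 and 1152 H3K4me3 counts over inputs of 449 and 540 (2.30-fold and 2.12-fold). Of the collagen-binding subunits 2 of 4 were above input for H3K27me3 and 0 of 4 for H3K4me3, counts too small to set these groups apart. ITGA1 and ITGA2, adjacent genes on chromosome 5 and the alpha subunits of the main collagen receptors, held 3196 and 2965 H3K27me3 reads with DMSO, against 1806 and 1751 with MAK683. ITGA10, the collagen receptor subunit of cartilage, lay below input, with 138 and 132 counts over inputs of 241 and 294 (-0.99 and -0.60), and ITGA11 was at input (-0.04 and 0.03).

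Of the alpha subunits that recognize the RGD motif, ITGA8 (chr10:15555953-15761921), which binds nephronectin in the developing kidney, had the highest H3K27me3 level of all members, 6945 counts with DMSO and 4100 with MAK683 over inputs of 2435 and 2965 (2.51-fold and 2.03-fold). ITGAV, the alpha subunit of vitronectin receptors, stood at the opposite end with 304 and 246 counts over inputs of 652 and 714, and was 2.54-fold over input for H3K4me3 in DMSO. ITGA4 and ITGA9, which bind VCAM1 and other non-RGD ligands, were both above input for H3K27me3, at 0.75 and 0.30 in DMSO. ITGA4 had 1594 and 1087 counts over inputs of 832 and 1068. The leukocyte subunits, whose proteins are made in blood cells, had 1 of 7 genes above input for H3K27me3 in DMSO (background 27.3%). This was ITGAM (0.10, interval -0.03 to 0.23). For H3K4me3 it was also 1 of 7 (ITGAE, 0.13, background 43.8%), so that 5 of the 7 were above input for neither mark. Of all members, 13 were above input for neither. With 7 genes and reads counted over whole genes, nothing particular to the leukocyte subunits can be read from this. ITGB7, a beta subunit of gut-homing lymphocytes, was the lowest of them in DMSO, with 149 and 110 H3K27me3 counts over inputs of 261 and 235 (-0.99 and -0.54).

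Among the beta subunits outside the leukocyte and laminin-binding groups, ITGB1, the partner of most alpha subunits, had the lowest H3K27me3 level of the 37, with 333 and 320 counts over inputs of 742 and 800, and 2489 and 2013 H3K4me3 counts. ITGB8 and ITGB6, which pair with ITGAV in receptors that release active TGF-beta, were above input for H3K27me3, at 0.74 and 0.63 in DMSO. ITGAV itself lay below input for H3K27me3, as did the beta subunits ITGB5 (-0.69), ITGB3 (-0.13) and ITGB1 (-1.34). The interval of ITGB3 (-0.29 to 0.02) includes input.

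The change with MAK683 is given as the log2 ratio of counts, MAK683 to DMSO with 1 count added to each, minus the median of this ratio over the genes that reached 10 counts with either treatment. That median was -0.44 for H3K27me3 over 29931 genes and -0.11 for H3K4me3 over 30028 genes. Such values tell which genes held a larger or smaller part of the reads, not how much of the mark was lost from the genome, since the deposited counts carry no spike-in scale. As deposited, 35 of 37 members had fewer H3K27me3 counts in MAK683, and LAMA1 and ITGA2B had more. The MAK683 library held 0.69 times the H3K27me3 counts of the DMSO library. All 52 other pathway genes with enough counts, listed below, also had fewer, so the 35 of 37 is nothing particular to the members.

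Relative to all genes, 24 members lay lower (background 47.4% of genes with at least 100 input counts) and 13 higher in H3K27me3, with a median of -0.10. Lower by at least 0.32 on this scale were 3 members, ITGB4, ITGA1 and ITGB8 (background 19.8%), and higher by at least 0.32 were 4, ITGA2B, LAMA1, ITGB1 and ITGA10 (background 20.1%). The count of 3 depended on the reference, since ITGA8, ITGA2, ITGA7, LAMB1 and LAMB4 lay between -0.32 and -0.30, just short of the threshold. It was 0 in plain CPM and 8 with protein-coding genes as the reference. By counting error, the share of a member's H3K27me3 reads that came from MAK683 lay below the library share of 41.0% for 11 members (background 13.6%) and above it for 7 (background 22.7%). Long genes have narrow intervals and pass this rule with smaller differences.

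All 13 members above input for H3K27me3 in DMSO lay below the center of all genes, between -0.38 and -0.10 with a median of -0.28, whereas the 24 others divided into 11 below and 13 above. This division was general to the table: 91.9% of all 5802 genes above input in DMSO lay below the center, against 30.8% of the genes not above input, so the 13 of 13 is close to the background and nothing particular to these genes can be read from it. The DMSO H3K27me3 library enters both the level and the change, so the same count was made by the level in MAK683, where all 14 members above input lay below the center (background 83.1%). In plain CPM the 13 lay between -0.30 and -0.019. The difference between treatments in the level over input was below 0 for 12 of the 13, LAMA3 being the exception at 0.05.

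The members with the lowest relative H3K27me3 in MAK683 lay close together. ITGB4, the laminin receptor subunit of hemidesmosomes, went from 289 to 162 H3K27me3 counts, with 35.9% of its reads in MAK683 (interval 31.5% to 40.5%). It was not above input to begin with (-0.76). ITGA1 had 36.1% of its H3K27me3 reads in MAK683 (34.8% to 37.5%), ITGB8, with 1774 and 1038 counts, 36.9% (35.1% to 38.7%), ITGA8 37.1% (36.2% to 38.03%) and ITGA2 37.1% (35.7% to 38.5%). ITGA7, the laminin receptor subunit of muscle, had 416 and 246 counts and 37.2% (33.5% to 41.0%). These intervals overlap throughout, so no order among the 6 can be read.

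On the other side, LAMA1 went from 1279 to 1381 H3K27me3 counts, a share of 51.9% (50.0% to 53.8%) and 1.47-fold higher relative to all genes. Its level over input went from -0.80 to -0.20, and so stayed below input. ITGA2B, the alpha subunit of the platelet fibrinogen receptor, had 132 and 146 counts (52.5%, interval 46.5% to 58.5%), ITGA10 138 and 132, and ITGB1 333 and 320. In each of these 4 genes the mark was below input in both treatments.

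**Figure D3:**
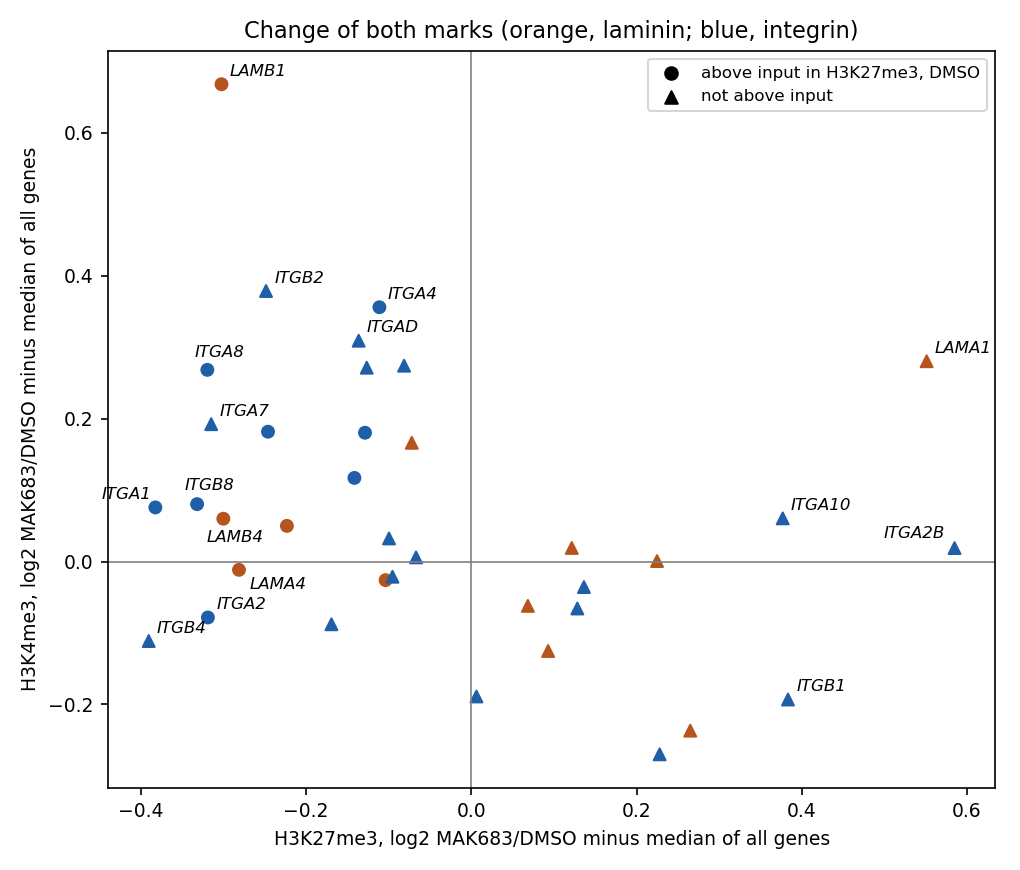
Change of H3K27me3 (x axis) and of H3K4me3 (y axis) with MAK683, both log2 of MAK683 over DMSO counts minus the median of all genes, for 37 genes (orange, laminin; blue, integrin). Circles are the 13 genes above input for H3K27me3 in DMSO, all of which lie left of 0, and triangles the other 24; LAMB1 is highest in H3K4me3 at 0.67.

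For H3K4me3 the median of the members' changes was 0.03. Higher by at least 0.32 were 3 members, LAMB1, ITGB2 and ITGA4 (background 20.0%), and 0 members were lower by that much (background 13.4%). By counting error the share of reads from MAK683 lay above the library share of 48.0% for 13 members (background 19.5%) and below it for 3, LAMB2, ITGB1 and ITGAL (background 21.3%). In 18 members H3K27me3 was lower and H3K4me3 higher relative to all genes (background 28.4% of 21261 genes with at least 100 input counts), in 8 the reverse (31.4%), in 6 both were lower (19.0%) and in 5 both higher (21.0%). The 8 with higher H3K27me3 and lower H3K4me3 included all 5 genes at least 2-fold over input for H3K4me3. At ITGAV (-0.036), LAMA5 (-0.062) and ITGA3 (-0.066) the H3K4me3 change was small, with share intervals that include the library share. The H3K4me3 libraries enter both the level and the change, and the same count over all genes was not made. Nothing particular to these 5 genes can therefore be read from it.

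LAMB1 (chr7:107564244-107643658, minus strand), a beta chain found in many laminins, had the largest H3K4me3 difference of the members. It held 851 H3K4me3 reads with DMSO and 1251 with MAK683, over inputs of 938 and 971, a share of 59.5% in MAK683 (57.4% to 61.6%), 1.59-fold higher relative to all genes and at the 91.7th percentile of all genes. Its H3K4me3 level crossed input, from -0.48 to 0.36. Its H3K27me3 counts were 1656 and 989, a share of 37.4%, with a level of 0.63 and 0.58 over input. LAMB4, the beta chain gene next to it on the same strand, had nearly the same H3K27me3 share, with 2865 and 1714 counts (37.4%). With input correction the H3K27me3 changes relative to all genes were further apart, -0.14 at LAMB1 and -0.26 at LAMB4. The H3K4me3 share of LAMB4 was lower, with 859 and 828 counts (49.1%, interval 46.7% to 51.5%), and the intervals of the neighboring genes do not overlap.

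ITGB2, the common beta subunit of leukocyte integrins, had 429 and 516 H3K4me3 counts (54.6%, 51.4% to 57.8%), and ITGA4 571 and 676 (54.2%, lower bound 51.4%). Both stayed below input, at -0.22 and -0.67 in MAK683. ITGAD had 301 and 345 H3K4me3 counts, ITGA11 1335 and 1493, and LAMA1 2054 and 2307. ITGA8 had 1748 and 1947 (52.7%, 51.1% to 54.3%). ITGA2, with the same H3K27me3 share as ITGA8, had 732 and 641 H3K4me3 counts (46.7%, 44.02% to 49.4%), an interval that includes the library share. The lowest relative H3K4me3 values were at ITGAL (368 to 282 counts, -0.27), LAMB2 (-0.24), ITGB1 (-0.19), ITGB7 (195 to 158 counts, -0.19), LAMB3 (-0.13) and ITGB4 (-0.11).

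**Figure D4:**
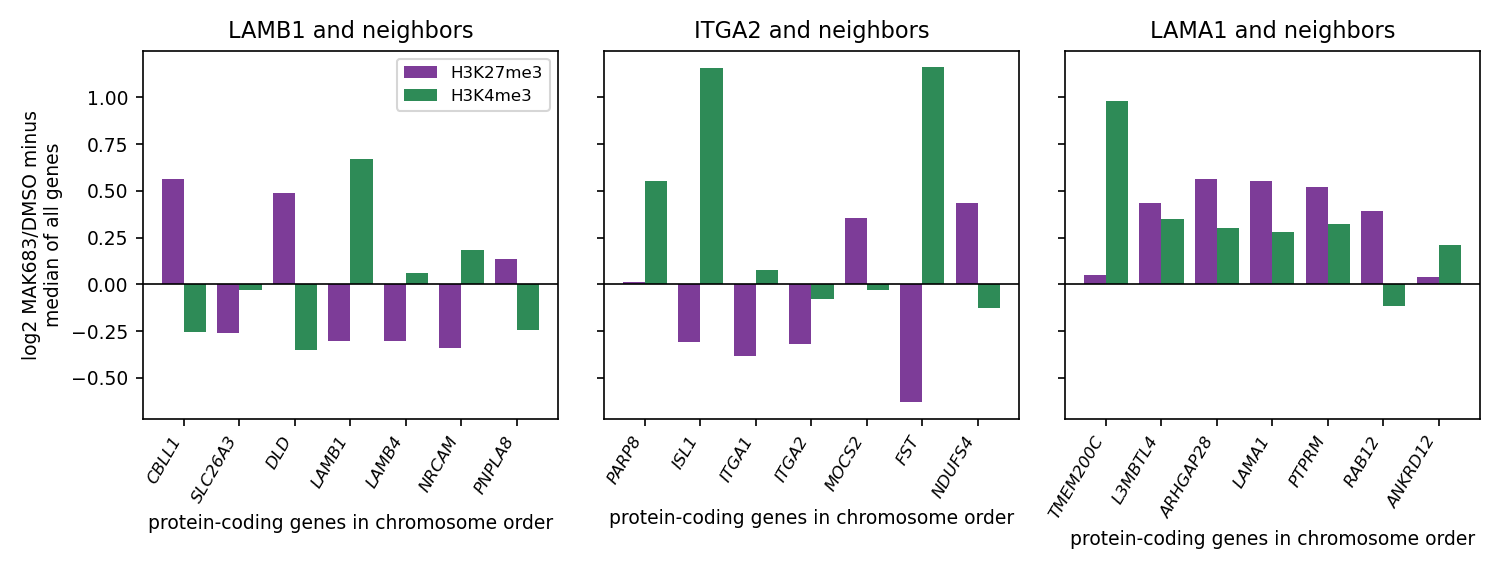
Change relative to all genes of H3K27me3 (purple) and H3K4me3 (green), in log2 units, at LAMB1, ITGA2 and LAMA1 and the 3 protein-coding genes on either side, in chromosome order; each bar is 1 library against 1. At LAMB1 and LAMB4 the H3K27me3 bars are alike (-0.30 each) while the H3K4me3 bars are 0.67 and 0.06.

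The stretches before the start sites are shown for 5 members, because LAMB1 and LAMB4 had alike H3K27me3 shares and differed in H3K4me3, ITGA8 and ITGA2 shared high H3K27me3, and LAMA5 had high H3K4me3. Sequences are those of RefSeq (GRCh38.p14), placed by exact match on GRCh37, the build named hg19 in the labels, where they lie at chr7:107643659-107643856 (LAMB1, minus strand), chr7:107770807-107771056 (LAMB4, minus), chr10:15761922-15762171 (ITGA8, minus), chr5:52284932-52285169 (ITGA2, plus, within the antisense gene ITGA2-AS1) and chr20:60942369-60942618 (LAMA5, minus). They are written 5′ to 3′ up to the annotated start of the gene, with each CG in capitals.
LAMB1: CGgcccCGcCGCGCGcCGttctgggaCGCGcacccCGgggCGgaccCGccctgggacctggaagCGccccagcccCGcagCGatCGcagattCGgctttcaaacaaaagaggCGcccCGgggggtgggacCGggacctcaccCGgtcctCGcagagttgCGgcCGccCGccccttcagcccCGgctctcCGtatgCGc
LAMB4: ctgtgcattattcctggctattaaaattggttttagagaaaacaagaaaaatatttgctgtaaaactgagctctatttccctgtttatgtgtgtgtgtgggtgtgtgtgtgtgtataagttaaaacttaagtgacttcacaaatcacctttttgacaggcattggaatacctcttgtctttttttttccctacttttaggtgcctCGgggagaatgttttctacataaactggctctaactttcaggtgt
ITGA8: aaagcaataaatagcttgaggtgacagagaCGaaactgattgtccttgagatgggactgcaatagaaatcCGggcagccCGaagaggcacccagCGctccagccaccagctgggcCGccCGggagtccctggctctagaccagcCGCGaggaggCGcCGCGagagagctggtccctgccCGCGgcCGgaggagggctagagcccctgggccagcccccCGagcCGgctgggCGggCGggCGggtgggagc
ITGA2: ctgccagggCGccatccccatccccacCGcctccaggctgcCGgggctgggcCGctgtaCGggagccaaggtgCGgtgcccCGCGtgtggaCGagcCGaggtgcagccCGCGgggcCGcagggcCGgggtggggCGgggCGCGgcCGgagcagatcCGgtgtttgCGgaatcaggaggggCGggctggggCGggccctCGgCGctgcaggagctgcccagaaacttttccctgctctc
LAMA5: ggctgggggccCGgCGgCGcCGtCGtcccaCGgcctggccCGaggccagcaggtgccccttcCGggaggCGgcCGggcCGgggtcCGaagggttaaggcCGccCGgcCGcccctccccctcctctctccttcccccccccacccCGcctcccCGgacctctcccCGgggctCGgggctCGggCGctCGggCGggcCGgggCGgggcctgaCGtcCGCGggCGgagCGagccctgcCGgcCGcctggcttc

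The 300-base window around the start site (250 bases before it and 50 after) held 35 CG at LAMB1, a count reached by 14.1% of 34796 promoters in the table, and 2 at LAMB4, reached by 89.0%. It held 27 at ITGA8 and 27 at ITGA2 (28.2% of promoters for each) and 41 at LAMA5 (6.71%). A window was found and placed once for 24 members, and 12 of these reached the median of all promoters, 14 CG. At LAMA3 and ITGB1 the start site of the window lay 183567 and 47562 bases from the annotated 5′ end of the gene. Among the members above input for H3K27me3 in DMSO, the 6 that reached this median (ITGA1, ITGA2, ITGA4, ITGA8, ITGB8 and LAMB1) had H3K4me3 changes of -0.08 to 0.67 relative to all genes, with a median of 0.17. The 6 below it (ITGAM, ITGB6, LAMA2, LAMA3, LAMA4 and LAMB4) had changes of -0.03 to 0.18, with a median of 0.055. LAMA3, with 13 CG in its distant window, set the lower end of this range. The ranges overlap, and CG content was not the basis of any choice of members.

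The other genes of the pathway were read from a list of 54, of which 53 had input reads. The ligands other than laminins were 15 genes, for matrix proteins and for the cell surface counter-receptors VCAM1, ICAM1 and MADCAM1. Of these 15, 9 were above input for H3K27me3 in DMSO (background 27.3%) and 6 at least 2-fold above it (background 10.7%). The 6 were TNN (1.54), TNC (1.11), NID2 (1.10), VCAM1 (1.07), FRAS1 (1.04) and NPNT (1.01). TNC and TNN are tenascins, NID2 links laminin to collagen IV, and NPNT, nephronectin, is the ligand of ITGA8. Of 14 ligand genes with enough counts, 5 were lower by at least 0.32 in H3K27me3 relative to all genes (background 19.8%) and 0 were higher by that much (20.1%). FN1, fibronectin, was also among the 5, with 1617 and then 918 H3K27me3 counts, and its H3K4me3 counts were 602 and 709.

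The genes that act inside the cell were mostly below input for H3K27me3, as were most genes of the table (27.3% above input). Of 20 talins, kindlins and adaptors, 2 were above input in DMSO, TNS1 (tensin, 1.46) and FERMT1 (the epithelial kindlin, 0.69), and 11 were above input for H3K4me3 (background 43.8%). Of 9 kinases and signaling genes 1 was above input, FYN (1.27), and of 9 other laminin receptors and partners 1, SDC2 (0.29). The median H3K27me3 level in DMSO was 0.65 for the ligands, -0.86 for the receptors and partners, -0.98 for the adaptors and -0.98 for the kinases, against -0.51 for the laminin and integrin genes and -0.75 for all genes. The ligand median is the level of MADCAM1 itself, which rests on 13 H3K27me3 and 7 input counts. FERMT1 had H3K4me3 counts of 506 and 682 with a change of 0.54 relative to all genes, the largest among the adaptors.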

How the data were processed

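ChIP-seq was done on G401 cells with 1 library per treatment and antibody. Per the labels, the authors trimmed reads with Trim Galore 0.4.4, aligned them to hg19 with Bowtie2, removed repeated sequences with Picard 2.23.6 and deposited whole-number counts per gene from featureCounts. The tools are given as names in the submitters' processing notes; the gene annotation of the counting is not given in the sources used here. A Drosophila spike-in is described in the study's methods, but the counts carry no such scale. Counts were processed with Python 3.11.15, pandas 2.3.3 and scipy 1.17.1, and the steps were checked on simulated data. Levels were compared over genes with at least 100 summed input counts, and changes over those that reached 10 counts in either library of a pair. Every member could be named, and values were given for the 6 highest and 6 lowest for H3K27me3, the 6 lowest changes of it, and the 6 highest and lowest changes of H3K4me3, with a mean of at least 50 counts, plus LAMB1 and ITGA2. Values of further members and of neighboring genes were added after they were seen. The members and lists were chosen with earlier results of these data known. Gene spans are from GENCODE 44 on GRCh37, and 59.8% of table genes matched it by symbol. RefSeq listed 32 promoter windows for members. Alternatives were other scalings, references, filters, pseudocounts and folds.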

Additional observations from a re-analysis of the deposited data

How the results depend on the processing

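No paired analysis was possible because each group held 1 library and no test was made. The count of members above 2-fold over input for H3K27me3 rose from 3 to 9 in DMSO and from 2 to 5 in MAK683 when the fold was set to 1.5. The count of members lower by at least 0.32 in H3K27me3, 3 relative to all genes, was 0 in CPM, 6 with median-of-ratios size factors, 27 in counts as deposited, 5 with input correction, 8 with a pseudocount of 5 counts, 8 with no filter, 8 against protein-coding genes, 0 at 1.5-fold, 0 at 2-fold and 11 by the counting interval. For H3K4me3 higher by at least 0.32, also 3, it was 1 in counts as deposited, 1 at 1.5-fold, 0 at 2-fold and 13 by the counting interval. The median change in counts as deposited was -0.54 for H3K27me3 and -0.081 for H3K4me3. There 11 of 37 members changed sign for H3K27me3 and 10 of 37 for H3K4me3. Among members past the fold, the H3K27me3 change of ITGA10 (-0.064) and ITGB1 (-0.057) reversed. Counts as deposited differ from the main setting only in that the median shift of all genes is not subtracted. The sign of the H3K27me3 change was kept by 34 of 37 members in CPM and 35 with input correction, and that of H3K4me3 by 37 and 29. CPM moved the median of all genes by 0.085 and 0.0039. With 1 library per group, depth limits only the counting error, and the spread between cultures is unknown.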

Other observations

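LAMA1, which was higher in both marks relative to all genes, lies in a run of genes with like values. On chromosome 18, H3K27me3 changed by 0.44 at L3MBTL4, 0.56 at ARHGAP28, 0.55 at LAMA1, 0.52 at PTPRM and 0.39 at RAB12 relative to all genes, and by 0.05 at TMEM200C and 0.04 at ANKRD12, the genes on either side. TMEM200C held only 54 and 41 H3K27me3 counts. Its share interval (33.0% to 53.7%) includes the share of LAMA1 (51.9%), so it cannot mark an edge of the run. H3K4me3 changed by 0.35, 0.30, 0.28 and 0.32 at L3MBTL4, ARHGAP28, LAMA1 and PTPRM and by -0.12 at RAB12. On either side it changed by 0.98 at TMEM200C (27 and 50 counts) and 0.21 at ANKRD12, so the run is not bounded in H3K4me3. L3MBTL4, which encodes an MBT domain protein, had 3123 and 3116 H3K27me3 counts and 4224 and 4980 H3K4me3 counts. The input of LAMA1 differed by 0.05 on the log2 scale of CPM between treatments, that of ARHGAP28 by 0.13 and that of PTPRM by 0.07. Each value rests on 1 library per treatment.

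ISL1 (chr5:50679282-50690564) and FST (chr5:52776456-52782964), on either side of ITGA1 and ITGA2, had larger H3K4me3 differences than these integrin genes. Reads were counted over whole genes, and ITGA1 (171 kb) and ITGA2 (105 kb) are much longer than ISL1 and FST. A difference at a start site weighs less in a long gene, so these values do not compare the start sites. ISL1, a transcription factor of cardiac and motor neuron development, had 139 and then 287 H3K4me3 counts (1.15 relative to all genes), and FST, which encodes the activin antagonist follistatin, had 200 and 414 (1.16). ISL1 had 624 and 371 H3K27me3 counts and FST had 478 and 227. At ITGA1 and ITGA2 the H3K4me3 changes were 0.08 and -0.08 while H3K27me3 was lower at both (-0.38 and -0.32). NRCAM, the cell adhesion gene next to LAMB4, had 10414 and 6062 H3K27me3 counts (-0.34) and a H3K4me3 change of 0.18.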
